A study of Homo sapiens with 38 samples.

Results

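The 9 genes described here encode receptors of the TNF receptor superfamily: TNFRSF10A, TNFRSF10B, TNFRSF1A, FAS, TNFRSF21, TNFRSF9, TNFRSF12A, LTBR and TNFRSF11A. They were taken by symbol, and all 9 were found among the 12627 genes of the expression table, of which 12474 could be given a symbol from their RefSeq identifiers. The cells were HCT116, an established human colorectal carcinoma line. The siRNA treatments targeted VPS4A and VPS4B, a pair of paralogous ATPases that take apart ESCRT-III filaments on membranes, alone and together, and the cells were collected after 72 h.

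Receptors of this superfamily are membrane proteins that bind trimeric ligands of the TNF family. Those with a death domain (TNFRSF10A and TNFRSF10B, the TRAIL receptors DR4 and DR5, TNFRSF1A, FAS and TNFRSF21, also called DR6) can recruit FADD or TRADD and start caspase-8 or NF-κB signalling. Those without one (TNFRSF9, also called 4-1BB or CD137, TNFRSF12A, the TWEAK receptor Fn14, LTBR, the lymphotoxin beta receptor, and TNFRSF11A, also called RANK) bind TRAF adaptors and feed the NF-κB pathways. In intestinal epithelium the family is known for its part in inflammation and in cell death.

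NT cells were not transfected and siCTRL#1 cells received 60 nM of a non-targeting duplex. siCTRL#2 cells received a second non-targeting duplex, whose concentration is not given in the sources used here. siVPS4A#1, siVPS4A#2, siVPS4B#1 and siVPS4B#2 cells received 30 nM of the named duplex with 30 nM of siCTRL#1. siVPS4A+B#1 cells received siVPS4A#2 with siVPS4B#1 and siVPS4A+B#2 cells received siVPS4A#1 with siVPS4B#2, at 30 nM each, so no duplex was shared between the pairs and neither pair contained siCTRL#1. Every condition had 4 libraries except siCTRL#1 with 5, 37 in all, and every library came from the same cell line, so the replicates are repeated cultures of 1 line. A single siVPS4A#1 library of 669257 reads (replicate 2) was left out.

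The 37 libraries held 5090666 to 11035293 reads (median 7561496), and 3 reads corresponded to at most 0.589 RPM (reads per 1000000 reads of the library, scaled with TMM factors for composition) in any of them. Against NT or siCTRL#1, the log2 fold change of VPS4A was -6.27 to -3.33 in the conditions that targeted it, and that of VPS4B -4.02 to -3.20 in those that targeted it. VPS4B was 0.61 higher in siCTRL#2 than in siCTRL#1 cells. In siVPS4A+B#1 cells VPS4A was 1.13 higher on that scale than in siVPS4A#2 cells, and in siVPS4A+B#2 cells 0.87 higher than in siVPS4A#1 cells. Of 10 colorectal epithelial markers 8 were in the table, with a summed level of 4704 to 8963 RPM per library. Of 10 leukocyte markers only CD68 and LYZ were in the table, and of 10 fibroblast and endothelial markers only COL1A1, PECAM1 and PDGFRB. In a bulk library fewer cells of a kind and less RNA per cell cannot be told apart. Each gene was read through 1 amplicon, so levels are compared between conditions and not between genes.

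In the genome (GRCh37), TNFRSF9 lay at chr1:7975931-8003225 (minus strand), TNFRSF21 at chr6:47199268-47277641 (minus), FAS at chr10:90750414-90775542 (plus), TNFRSF12A at chr16:3068446-3072384 (plus) and TNFRSF11A at chr18:59992520-60058521 (plus). TNFRSF1A (chr12:6437923-6451280, minus) and LTBR (chr12:6484211-6500737, plus) shared chromosome 12, and TNFRSF10A and TNFRSF10B shared chromosome 8.

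Because TNFRSF9 was the member that rose most (values below), the start regions of the members were searched for sites of NF-κB, p53 and AP-1. RefSeq promoter sequences (GRCh38.p14, 250 bases before and 50 after each start) were found for 6 members, with 3 starts for FAS. TNFRSF10A, TNFRSF10B and TNFRSF12A were not among them, so their start regions were not searched. The κB consensus was searched by its name on both strands, and it was present in 5.91% of the 35116 promoters of this kind. TNFRSF9 had overlapping matches on both strands, 11 bases in all, from 74 to 64 bases before the start, and FAS had 1 match, 157 to 148 bases before 1 of its 3 starts. The 30 bases around each are shown 5′ to 3′ on the strand of the gene, with the κB match in capitals.

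TNFRSF9 (GRCh37, chr1:8000953-8000982, minus strand): agctgtggtGGGAATTTCCCatgagacccc
FAS (GRCh37, chr10:90751021-90751050, plus strand): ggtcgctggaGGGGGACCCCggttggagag

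Both windows were placed in GRCh37 by sequence identity. In the GENCODE annotation of that build the TNFRSF9 window lay in an exon of 1 TNFRSF9 transcript with an earlier start, and the FAS window was exonic in 2 of the 12 FAS transcripts that spanned it and also lay in exons of ACTA2. TNFRSF9 also had 1 match of the AP-1 site TGACTCA, on the minus strand of the gene from 44 to 38 bases before the start, a motif found in 4.95% of promoters. No searched member window held the p53 consensus, which 0.0285% of promoters held. A match describes letters only, and no binding was measured here.

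TNFRSF9 and TNFRSF10A were the 2 of 9 members called up in all 4 comparisons of combined silencing (each pair against NT and against siCTRL#1, fold change of at least 1.5 and adjusted p under 0.05 by limma with Benjamini-Hochberg adjustment). Over all genes 3.96% were called up by the same rule. With siCTRL#2 in place of siCTRL#1 the count was also 2, but the genes were TNFRSF9 and TNFRSF12A. None of the 9 was called down in all 4 by limma (4.16% of all genes were), and the count was also 0 at an unadjusted p under 0.05 with the same fold, by edgeR and by DESeq2. None was called in all 4 comparisons of VPS4B silencing (0.483% of genes up, 0.634% down) or of VPS4A silencing (0% up, 0.00792% down), and these counts were also 0 at an unadjusted p under 0.05 with the same fold, by edgeR and by DESeq2. The comparisons share their NT and siCTRL#1 libraries, so they are given side by side and not as repeats of each other.

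In siVPS4A+B#1 cells 4 members were called against NT (26.0% of all genes, either direction) and 5 against siCTRL#1 (22.1%). In siVPS4A+B#2 cells 4 were called against NT (28.8%) and 2 against siCTRL#1 (28.7%). The median log2 fold change of the 9 was 0.24 and 0.41 in siVPS4A+B#1 cells and 0.50 and 0.23 in siVPS4A+B#2 cells (NT, then siCTRL#1), where that of all genes was between -0.04 and -0.02. The shares of members called lay on both sides of the background of their comparison.

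**Figure D1:**
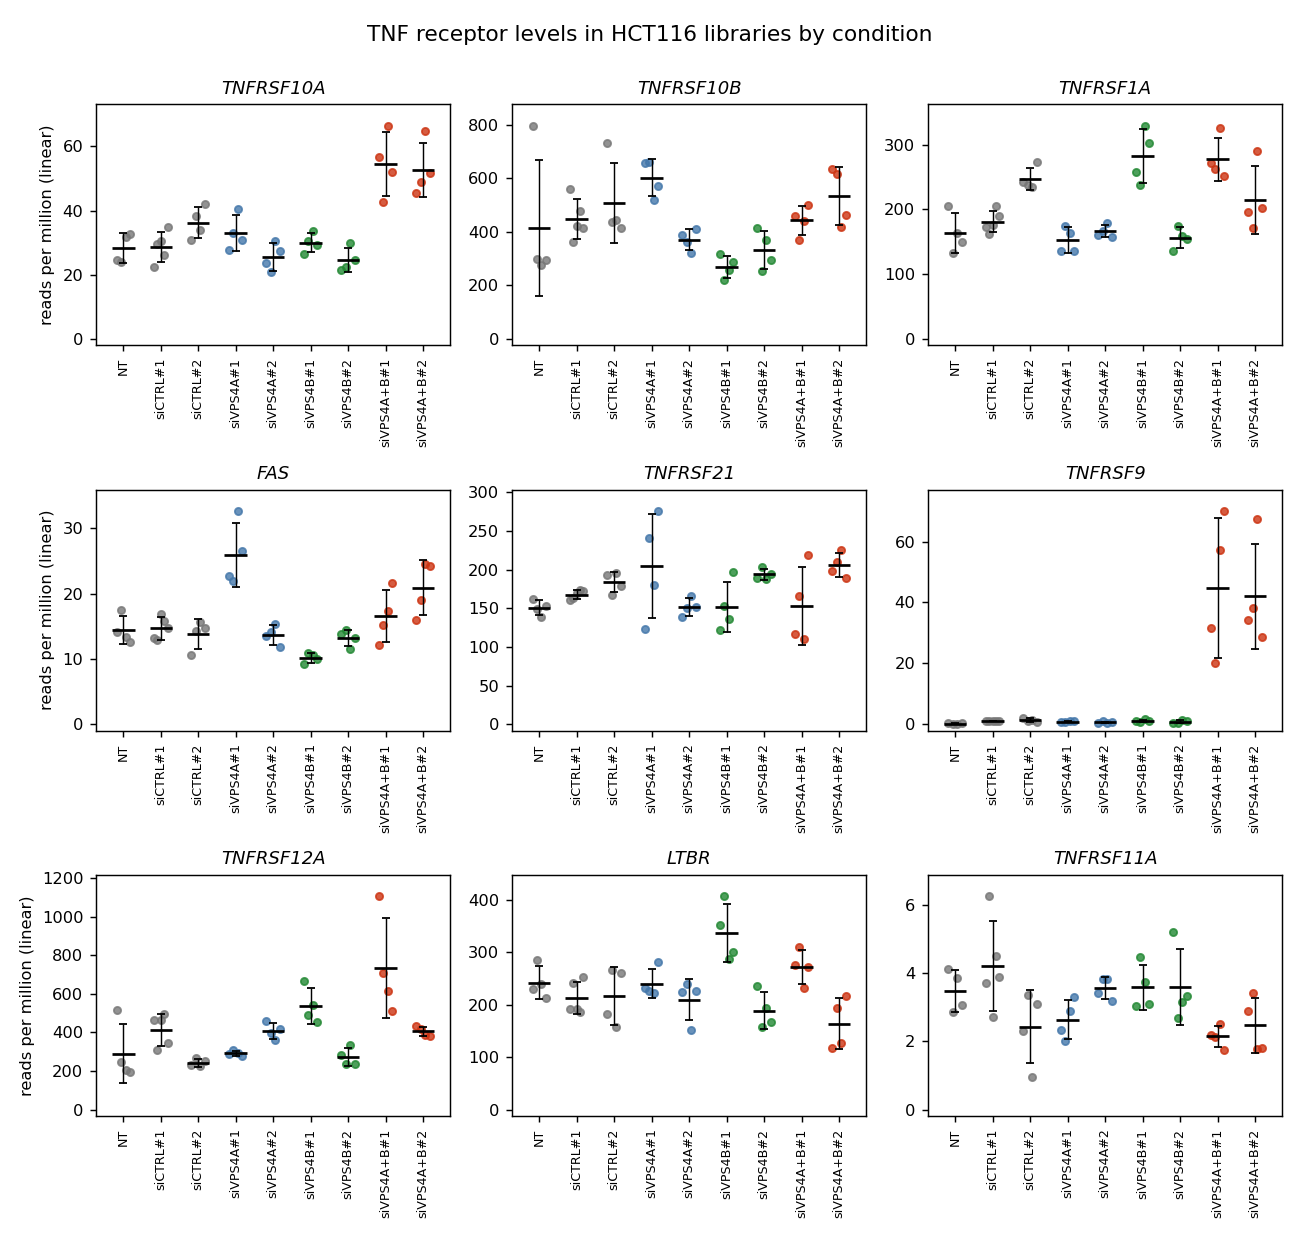
Level of each receptor gene in every library, in RPM on a linear axis from 0, by condition. Points are libraries (grey controls, blue VPS4A duplexes, green VPS4B duplexes, red pairs), bars the mean and whiskers the SD. All 8 TNFRSF9 libraries of the pairs, 20.1 to 70.0, lie above the other 29, which reach 2.16.

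TNFRSF10A, which carries the death signal of TRAIL, was higher in all 8 libraries of combined silencing than in any of the 29 others. It stood at 24.6, 24.0, 31.7 and 32.8 RPM in NT cells (28.3 ± 4.64, SD, n = 4) and at 22.4, 29.6, 30.5, 26.1 and 34.9 in siCTRL#1 cells (28.7 ± 4.72, n = 5). siVPS4A+B#1 cells had 56.8, 42.7, 66.5 and 52.2 (54.5 ± 9.86, n = 4) and siVPS4A+B#2 cells 45.5, 48.9, 64.9 and 51.7 (52.7 ± 8.47, n = 4). The 2 pairs overlapped with each other and with no control library.

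The log2 fold change of TNFRSF10A was 0.92 ± 0.13 (SE) and 0.93 ± 0.13 for siVPS4A+B#1 against NT and siCTRL#1, and 0.88 ± 0.13 and 0.89 ± 0.13 for siVPS4A+B#2, with a largest limma adjusted p of 1.1e-06. siCTRL#2 cells lay between, at 31.0, 38.3, 33.9 and 42.0 (36.3 ± 4.83, n = 4), 0.37 ± 0.13 above siCTRL#1 on the log2 scale (limma adjusted p = 0.032, under the fold threshold). Against siCTRL#2 the pairs were 0.57 and 0.52 higher on the log2 scale (limma adjusted p = 0.00075 and 0.0014), below the 1.5-fold threshold, so TNFRSF10A was not called with this control. The single duplexes ranged from 20.9 to 40.6 RPM over their 16 libraries and none passed the thresholds.

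TNFRSF10B, the other death-signalling TRAIL receptor, was not called in either pair against NT or siCTRL#1 and moved with single duplexes in opposite directions. It stood at 658, 659, 521 and 571 RPM in siVPS4A#1 cells (602 ± 68.3, n = 4), against 317, 222, 257 and 288 in siVPS4B#1 cells (271 ± 40.9, n = 4). siCTRL#1 cells had 560, 361, 422, 479 and 416 (448 ± 75.4, n = 5). In NT cells 1 library stood apart, at 796 against 275 to 297 in the other 3.

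The log2 fold change of TNFRSF10B in siVPS4A#1 cells was 0.66 ± 0.18 against NT (limma adjusted p = 0.0034) and 0.39 ± 0.16 against siCTRL#1 (0.057). Without the replicate 3 libraries the first fell to 0.42 (limma adjusted p = 0.14). In siVPS4B#1 cells it was -0.74 ± 0.17 against siCTRL#1 (limma adjusted p = 0.001) and -0.47 ± 0.17 against NT (0.029, under the fold threshold). In siVPS4B#2 cells it was -0.45 ± 0.17 against siCTRL#1 (limma adjusted p = 0.064) and -0.19 ± 0.17 against NT (0.46), neither called. Against siCTRL#2 both VPS4B duplexes were called down, siVPS4B#1 at -0.88 ± 0.17 and siVPS4B#2 at -0.59 ± 0.17 (limma adjusted p = 8.2e-05 and 0.0062). Against the VPS4B duplex alone both pairs were higher, by 0.71 ± 0.17 and 0.68 ± 0.17 (limma adjusted p = 0.00285 and 0.00145), while against the VPS4A duplex alone they differed by 0.25 (95% interval -0.10 to 0.60) and -0.16 (-0.53 to 0.20). Without replicate 2 the second pair exceeded siVPS4B#2 by 0.48 (limma adjusted p = 0.061). The pairs themselves had 458, 371, 441 and 502 (443 ± 54.7) and 636, 617, 419 and 462 (534 ± 109) RPM, within the span of the controls. Against NT their log2 fold changes were 0.24 ± 0.17 and 0.50 ± 0.17, and without the replicate 1 libraries 0.59 and 0.78, both past the thresholds (limma adjusted p = 0.0053 and 0.00035). Without NT replicate 1 alone the second was 0.78 as well.

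TNFRSF1A, the ubiquitous receptor of TNF, was highest with the siVPS4B#1 duplex, alone or in the pair that contained it. siVPS4B#1 cells had 258, 238, 329 and 303 RPM (282 ± 41.6, n = 4) and siVPS4A+B#1 cells 271, 262, 325 and 251 (277 ± 33.0, n = 4), against 163 to 205 in siCTRL#1 cells (181 ± 16.3, n = 5). All 8 libraries with that duplex lay above all 9 of NT and siCTRL#1, but both conditions overlapped with siCTRL#2 cells. siVPS4B#2 cells, with the other duplex, had 136, 175, 159 and 155 (156 ± 16.2, n = 4), inside the range of the NT libraries, 133 to 205.

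Against siCTRL#1 and NT the log2 fold change of TNFRSF1A was 0.62 ± 0.13 and 0.79 ± 0.13 in siVPS4B#1 cells and 0.60 ± 0.13 and 0.77 ± 0.13 in siVPS4A+B#1 cells (largest limma adjusted p 0.00027). The 2 values against siCTRL#1 sat just above the threshold of 1.5-fold, and without replicate 3 they were 0.55 and 0.54, without replicate 2 the second was 0.58. In siVPS4A+B#2 cells it was 0.38 ± 0.13 and 0.21 ± 0.13 against NT and siCTRL#1, not called. The duplexes of VPS4B differed from each other by 0.84 ± 0.13 (limma adjusted p = 5e-06). The non-targeting siCTRL#2 cells, at 234 to 273, were 0.44 ± 0.13 above siCTRL#1 cells and 0.61 ± 0.13 above NT cells (limma adjusted p = 0.007 and 0.00036). Against siCTRL#2 the values of siVPS4B#1 and siVPS4A+B#1 cells were 0.18 ± 0.13 and 0.16 ± 0.13 (limma adjusted p = 0.29 and 0.32), not called.

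FAS, the receptor of FAS ligand, was called up in siVPS4A#1 cells and in no pair. It stood at 22.7, 21.9, 32.6 and 26.5 RPM there (25.9 ± 4.88, n = 4), above all 9 libraries of NT (12.7 to 17.6) and siCTRL#1 (12.9 to 16.9). siVPS4A#2 cells, in which VPS4A was also lowered, had 11.8 to 15.4 (13.7 ± 1.51, n = 4), overlapping with the controls. siVPS4B#1 cells had the lowest levels, 9.15 to 10.9 (10.2 ± 0.77, n = 4), below every NT and siCTRL#1 library, and overlapping with siCTRL#2 (10.5 to 15.7).

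In siVPS4A#1 cells the log2 fold change of FAS was 0.80 ± 0.16 against NT and 0.78 ± 0.15 against siCTRL#1 (limma adjusted p = 0.00014 and 6.1e-05), and 0.86 ± 0.16 against siVPS4A#2 (5.7e-05). With the library of 669257 reads kept in the fit these were 0.51, 0.52 and 0.57, under the fold threshold. In siVPS4B#1 cells the log2 fold change of FAS against siCTRL#1 was -0.48 ± 0.15 (limma adjusted p = 0.02, under the fold threshold). In the pairs FAS was at 12.2 to 21.5 (16.6 ± 3.94) and 15.9 to 24.5 (20.9 ± 4.17), which overlapped with the controls. The second pair was 0.50 ± 0.16 above NT, and 0.62 without replicate 1 or 0.63 without replicate 2, past the threshold. The pairs exceeded their VPS4B duplex alone by 0.63 ± 0.16 and 0.60 ± 0.16 (limma adjusted p = 0.00402 and 0.00194). Without replicate 4 these were 0.49 and 0.53, and without replicate 3 the second was 0.47 (limma adjusted p = 0.077, 0.018 and 0.054). Both also fell under the fold threshold without TMM factors (0.49 and 0.51) and with a pseudocount of 5 (both 0.49).

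TNFRSF21, a death-domain receptor, was called in none of the comparisons described here. NT cells had 139 to 162 RPM (151 ± 9.63, n = 4) and siCTRL#1 cells 160.5 to 173 (168 ± 5.77, n = 5). Its spread was wider in siVPS4A#1 cells, at 123, 241, 180.0 and 276, and in siVPS4A+B#1 cells, at 116, 166, 111 and 219. The log2 fold changes of the pairs were -0.03 and -0.12 (siVPS4A+B#1) and 0.45 and 0.36 (siVPS4A+B#2) against NT and siCTRL#1, and the pairs differed by -0.48 ± 0.16 (limma adjusted p = 0.02, under the fold threshold).

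TNFRSF9, a costimulatory receptor best known from activated T cells, was close to absent in control cells and present in every library of combined silencing. NT cells had 0.427, 0, 0.124 and 0.327 RPM, 7 reads over 4 libraries, and siCTRL#1 cells 1.01, 0.962, 1.19, 1.16 and 1.04, 40 reads over 5. siVPS4A+B#1 cells had 31.7, 20.1, 57.2 and 70.0 (44.7 ± 22.9, n = 4), 1292 reads in all, and siVPS4A+B#2 cells 34.2, 38.2, 67.3 and 28.7 (42.1 ± 17.2, n = 4), 1040 reads. The lowest of these 8 libraries stood at 20.1, and the highest of the other 29 at 2.16.

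Singly silenced cells overlapped with siCTRL#2 cells, while siVPS4A#1 and siVPS4B#1 cells lay above all NT libraries. TNFRSF9 was at 0.640 to 0.995 RPM in siVPS4A#1 cells, 0.368 to 0.924 in siVPS4A#2 cells, 0.777 to 1.60 in siVPS4B#1 cells and 0.315 to 1.35 in siVPS4B#2 cells, against 0.730 to 2.16 in siCTRL#2 cells. The 7 conditions other than the pairs overlapped with their neighbours in the order of means. The left-out library labelled siVPS4A#1 (replicate 2) stood apart, with 41 reads or 66.4 RPM of TNFRSF9, and it also held only 1 read of VPS4B.

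The log2 fold change of TNFRSF9 on the scale of log2(RPM + 1) was 5.09 ± 0.24 and 5.08 ± 0.24 against NT and 4.33 ± 0.23 and 4.32 ± 0.23 against siCTRL#1 (first pair, then second; largest limma adjusted p 4.4e-18). The added 1 understates changes of genes near 0. From pooled reads the levels were 43.1-fold (95% interval 31.5 to 60.6) and 38.9-fold (28.4 to 54.8) those of siCTRL#1, and 214-fold (103 to 533) and 193-fold (93.3 to 481) those of NT, where the intervals cover counting error only and PCR copies are counted as reads. The pairs differed by 0.01 on the log2 scale (95% interval -0.48 to 0.49). siCTRL#1 cells themselves were 0.76 ± 0.23 above NT (limma adjusted p = 0.02), with a value of 0.70 without replicate 3 (0.094) and 0.69 without replicate 2 (0.066). siVPS4B#1 cells were 0.78 ± 0.24 above NT (0.0094), with 0.63 without replicate 3 (0.081). With a pseudocount of 5 these differences were 0.21 and 0.22, not called. With the left-out library kept, the differences of siCTRL#1 and siVPS4B#1 from NT were 0.89 and 0.78 and did not pass (limma adjusted p = 0.36 and 0.35), while the 2 pairs stayed past the thresholds against both controls.

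TNFRSF12A, the receptor of TWEAK, varied with the control used. It stood at 515, 248, 203 and 196 RPM in NT cells (291 ± 151, n = 4), at 462, 306, 463, 497 and 345 in siCTRL#1 cells (415 ± 83.6, n = 5) and at 229, 270, 224 and 251 in siCTRL#2 cells (244 ± 21.1, n = 4). On the log2 scale the difference was 0.64 ± 0.17 for siCTRL#1 against NT and -0.78 ± 0.17 for siCTRL#2 against siCTRL#1 (limma adjusted p = 0.0084 and 0.00063). All siCTRL#2 libraries thus lay below all siCTRL#1 libraries. The difference of siCTRL#1 from NT was 0.46 without replicate 3 and 0.42 without replicate 4 (limma adjusted p = 0.17 and 0.15).

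In siVPS4A+B#1 cells TNFRSF12A reached 1107, 710, 615 and 512 RPM (736 ± 260, n = 4), above every siCTRL#1 library, and in siVPS4A+B#2 cells 434, 419, 388 and 383 (406 ± 24.6, n = 4). The log2 fold change was 1.40 ± 0.18 and 0.75 ± 0.17 for the first pair against NT and siCTRL#1 (limma adjusted p = 4e-08 and 0.00071), and 0.58 against siCTRL#1 without replicate 1. For the second pair it was 0.60 ± 0.18 and -0.04 ± 0.17 (limma adjusted p = 0.0059 and 0.86). Without replicates 2, 3 or 4 the value against NT was 0.55, 0.49 or 0.48, under the threshold, as it was with edgeR (0.54), DESeq2 (0.57) and no TMM factors (0.54). Against siCTRL#2 both pairs were called up, by 1.53 ± 0.18 and 0.74 ± 0.18. The VPS4B duplexes pointed apart, with siVPS4B#1 at 453 to 666 and siVPS4B#2 at 237 to 333, a difference of 0.98 ± 0.18 (limma adjusted p = 7e-05). Single duplexes gave 0.99 ± 0.18 for siVPS4B#1 against NT, -0.63 ± 0.17 for siVPS4B#2 against siCTRL#1 and 0.60 ± 0.18 for siVPS4A#2 against NT (limma adjusted p = 2.8e-05, 0.013 and 0.018). The second was -0.49 without replicate 4, and the third 0.58, 0.54 or 0.44 without replicates 2, 3 or 4. With edgeR and DESeq2 the third was 0.55 and 0.56, under the fold threshold.

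LTBR, which drives the non-canonical NF-κB pathway, was higher with siVPS4B#1 and lower in the second pair. siVPS4B#1 cells had 352, 407, 288 and 300.4 RPM (337 ± 54.6, n = 4), above all siCTRL#1 libraries, 187 to 253 (213 ± 31.1, n = 5). siVPS4A+B#2 cells had 118, 194, 127 and 216 (164 ± 48.6, n = 4), overlapping at their upper end with NT cells, 213 to 286 (243 ± 31.1, n = 4). The log2 fold change in siVPS4B#1 cells was 0.71 ± 0.15 against siCTRL#1 (limma adjusted p = 0.00038) and 0.47 ± 0.15 against NT (0.014, under the fold threshold). In siVPS4A+B#2 cells it was -0.60 ± 0.15 against NT (limma adjusted p = 0.0014) and -0.36 ± 0.15 against siCTRL#1 (0.049, under the fold threshold). The value against NT fell under the threshold with edgeR (-0.58), DESeq2 (-0.55) and DESeq2 size factors (-0.57), and was -0.47 without replicate 1 and -0.50 without replicate 3. The VPS4B duplexes differed by 0.84 ± 0.15 and the pairs by 0.77 ± 0.15 (limma adjusted p = 6.2e-05 and 0.00015), with siVPS4B#1 and the pair that held it on the higher side. Its interaction in the second pair, -0.44 ± 0.21 (limma adjusted p = 0.14), was -0.65 without replicate 4 (0.041) and -0.59 without TMM factors (0.041).

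TNFRSF11A, the receptor of RANK ligand, was near the lower end of what the libraries could resolve, with 8 to 52 reads per library. siCTRL#1 cells had 3.70, 6.26, 2.71, 4.49 and 3.88 RPM (4.21 ± 1.31, n = 5) and siVPS4A+B#1 cells 2.18, 2.13, 2.51 and 1.76 (2.14 ± 0.31, n = 4), with no overlap. The log2 fold change was -0.68 ± 0.20 (limma adjusted p = 0.0059), and -0.51 without replicate 2 (0.063), -0.57 without replicate 4 (0.067) and -0.35 with a pseudocount of 5. Against NT the pairs were at -0.50 ± 0.20 and -0.39 ± 0.20 (limma adjusted p = 0.042 and 0.11), neither called. siCTRL#2 cells were lower than siCTRL#1 cells by a similar amount, -0.61 ± 0.20 (limma adjusted p = 0.016), and -0.50 without replicate 3 (0.091) and -0.30 with a pseudocount of 5. The second pair was -0.56 ± 0.20 from siCTRL#1 (limma adjusted p = 0.018), just under the fold threshold, and -0.65, -0.59 and -0.59 without replicates 1, 3 and 5, past it. It was also called by edgeR (-0.80) and DESeq2 (-0.78), with a pseudocount of 0.1 (-0.72) and without TMM factors (-0.66). Against siCTRL#2 the first pair differed by -0.07 (95% interval -0.47 to 0.34).

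**Figure D2:**
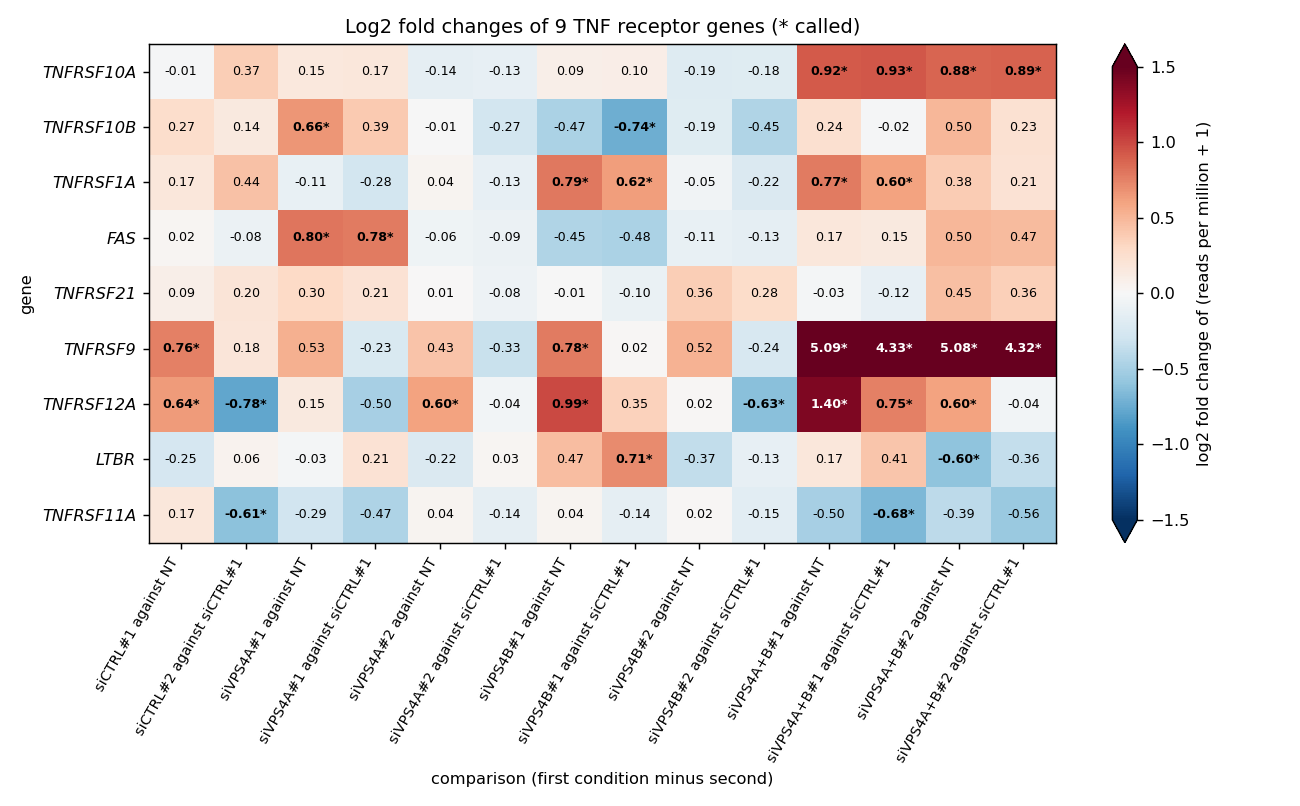
Log2 fold change of (RPM + 1) for each receptor gene (rows) in 14 comparisons (columns), with the value in each cell. Bold values with an asterisk passed a 1.5-fold change and a limma adjusted p under 0.05, and the colour scale ends at 1.5, beyond which TNFRSF9 in the pairs (4.32 to 5.09) is drawn in the end colour.

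The single duplexes called between 0 and 3 members per comparison, with shares on both sides of the background. Against siCTRL#1 these were 3 with siVPS4B#1 (12.9% of all genes), 1 with siVPS4B#2 (7.57%), 1 with siVPS4A#1 (22.0%) and 0 with siVPS4A#2, where 0.0871% of genes passed. Against NT there were 3 (22.3%), 0 (15.5%), 2 (25.0%) and 1 (8.15%) in the same order of duplexes. With siVPS4A#2 against siCTRL#1 no member passed an unadjusted limma p under 0.05, and edgeR and DESeq2 called 0. With siVPS4B#2 against NT 3 members passed an unadjusted limma p under 0.05, all under the fold threshold, and edgeR and DESeq2 each called 1, TNFRSF9. Between controls, 2 members were called for siCTRL#1 against NT (9.05% of genes) and 2 for siCTRL#2 against siCTRL#1 (16.8%). In siCTRL#2 against NT, TNFRSF9 (0.94 ± 0.24) and TNFRSF1A (0.61 ± 0.13) passed the thresholds upwards (limma adjusted p = 0.0027 and 0.00036). The share of all genes is not given for that comparison. siVPS4A#1 and siVPS4A#2 differed for 2 members, FAS and TNFRSF10B (22.2%; TNFRSF10B 0.67 ± 0.18, and 0.51 without replicate 3). siVPS4B#1 and siVPS4B#2 differed for 3 (15.1%) and the pairs for 2 (17.4%).

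Whether silencing both genes did more than the sum of silencing each was tested directly, as the pair minus its VPS4A duplex minus its VPS4B duplex plus siCTRL#1 on the log2 scale. For siVPS4A+B#1 the interaction passed an adjusted p of 0.05 in 4 of 9 members (6.34% of all genes) and for siVPS4A+B#2 in 4 (19.7%). TNFRSF9 and TNFRSF10A were in both. TNFRSF9 had an interaction of 4.64 (95% interval 3.97 to 5.32) and 4.79 (4.12 to 5.46), and TNFRSF10A of 0.96 (0.58 to 1.34) and 0.90 (0.53 to 1.28), with a largest limma adjusted p of 0.00076.

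The other interactions held for 1 pair each. With siVPS4A+B#1 they were TNFRSF10B, 0.99 (95% interval 0.50 to 1.47, limma adjusted p = 0.007), and FAS, 0.71 (0.27 to 1.16, adjusted p = 0.04). With siVPS4A+B#2 they were TNFRSF1A, 0.71 (0.35 to 1.07, adjusted p = 0.0039), and TNFRSF12A, 1.08 (0.58 to 1.58, adjusted p = 0.0015). In these 4 cases the pair was not called against siCTRL#1, and both of its single duplexes had values below siCTRL#1. These were -0.27 and -0.74 for TNFRSF10B, -0.09 and -0.48 for FAS, -0.28 and -0.22 for TNFRSF1A and -0.50 and -0.63 for TNFRSF12A (VPS4A, then VPS4B duplex), of which only the VPS4B values of TNFRSF10B and TNFRSF12A were called. The FAS value rested on few libraries: it was 0.84, 0.84, 0.71 and 0.46 without replicates 1, 2, 3 and 4 in turn (limma adjusted p = 0.06, 0.058, 0.15 and 0.4) and 0.72 with an adjusted p of 0.06 without the replicate block. Without TMM factors it was 0.60 (limma adjusted p = 0.096), and with the left-out library kept 0.69 (0.23). The TNFRSF10B value was 0.91 without replicate 3 (limma adjusted p = 0.076) and 0.97 without the replicate block (0.05).

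**Figure D3:**
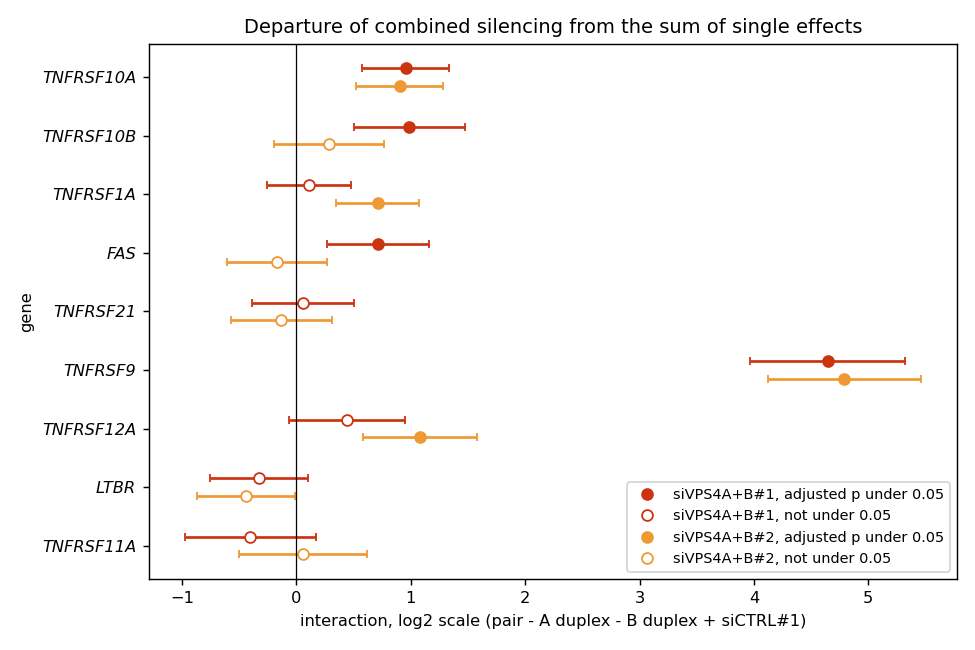
Interaction of VPS4A and VPS4B silencing on the log2 scale (horizontal axis) for each receptor gene, with unadjusted 95% intervals as whiskers, for both pairs of duplexes. Filled points passed a limma adjusted p of 0.05. TNFRSF9 lies at 4.64 and 4.79 and TNFRSF10A at 0.96 and 0.90, and no other gene passes in both pairs.

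Compared with each duplex alone at the same concentration, siVPS4A+B#1 called 4 members against siVPS4A#2 (23.5% of all genes) and 4 against siVPS4B#1 (9.88%). siVPS4A+B#2 called 2 against siVPS4A#1 (17.5%) and 4 against siVPS4B#2 (25.7%). TNFRSF9 rose in all 4 of these, by 4.31 to 4.66 on the log2 scale, and TNFRSF10A by 0.72 to 1.07. No other member was called in all 4.

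Of the genes of the family outside the 9, 13 of 20 listed were in the table. In all 4 comparisons of combined silencing 1 was called up (3.96% of all genes) and 2 down (4.16%). TNFRSF10D, a TRAIL decoy receptor without a working death domain, rose from 32.7 to 47.1 RPM in NT and 37.9 to 55.3 in siCTRL#1 cells to 82.8 to 118 in the pairs. Its log2 fold changes lay between 0.95 and 1.19 (largest limma adjusted p 4.4e-07). It was as high with siCTRL#2 (80.7 to 127), from which the pairs differed by -0.08 and -0.05, and siVPS4A#1 raised it by 0.99 over siCTRL#1. EDAR, the ectodysplasin receptor, fell in all 4 comparisons (log2 fold change -1.83 to -1.23), from 2.11 to 5.41 RPM in NT cells to at most 0.854 in the pairs (9 and 13 reads in all), and differed from siCTRL#2 by -1.06 and -0.82. TNFRSF19 (TROY) fell as well (-0.96 to -0.82), with 8 reads in all in each pair, but from siCTRL#2, itself at -0.63 from siCTRL#1, the pairs differed by -0.19. With a pseudocount of 5 TNFRSF19 was at -0.30 to -0.25 in the 4 comparisons and EDAR at -0.53 and -0.47 against siCTRL#1, under the fold threshold, so neither was then called in all 4. TNFRSF6B, a soluble decoy for FAS ligand named after its values were seen, moved in opposite directions with siVPS4B#1 (2.10) and siVPS4B#2 (-1.15) against siCTRL#1, and by 2.01 with siCTRL#2.

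Of 18 listed ligands 7 were in the table, and TNF itself was called up in all 4 comparisons of combined silencing, from very few reads. It had 0 reads in the 4 NT libraries, 2 in the 5 siCTRL#1 libraries, 32 in siVPS4A+B#1 cells and 20 in siVPS4A+B#2 cells. By library these were 3.12, 0.761, 0 and 1.03 RPM in the first pair and 1.35, 2.13, 0.160 and 0.120 in the second. Of these 8 libraries 5 lay above all NT and siCTRL#1 libraries. From pooled reads the level was 21.4-fold (95% interval 5.45 to 184) and 15.0-fold (3.63 to 132) that of siCTRL#1. DESeq2 called none of the 4 comparisons of TNF (adjusted p 0.12 to 0.39), and with a pseudocount of 5 the limma values were 0.21 to 0.29, under the fold threshold. In the limma fit the first pair was at 0.62 and 0.48 without replicate 1 (adjusted p = 0.052 and 0.12), and the second at 0.54 and 0.41 without replicate 2 (0.1 and 0.21), against NT and siCTRL#1. TNFSF9, the ligand of TNFRSF9, was at 20.5 to 30.6 RPM in NT cells, 41.6 to 71.8 in siCTRL#1 cells, 56.4 to 65.2 in the first pair and 59.6 to 104 in the second, and was called up in 3 of the 4 comparisons.

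Among 20 adaptors and regulators at the receptors, all in the table, 6 were called up in all 4 comparisons (3.96% of all genes) and 0 down (4.16%). Their median log2 fold change, as a mean over the 4 comparisons, was 0.54, against -0.03 for all genes. BIRC3, a ubiquitin ligase bound to TRAF2, rose most, from 2.56 to 4.04 RPM in NT and 7.96 to 10.6 in siCTRL#1 cells to 146 to 362 in the pairs (log2 fold change 4.71 to 5.95). MAP3K14, the kinase NIK, rose by 1.33 to 2.61, TNFAIP3 (A20) by 1.04 to 2.26, BIRC2 by 0.85 to 1.47 and TRAF4 by 0.76 to 1.09. With siVPS4A#1 alone TRAF4 was at 0.92 and TNFAIP3 at -0.95 against siCTRL#1, both called (limma adjusted p = 1e-08 and 0.00035). BIRC2 was at 0.58 for the first pair against siCTRL#1 without replicate 4.

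The NF-κB feedback and output list had 6 of 10 genes called up in all 4 comparisons (3.96% of all genes) and 0 down (4.16%), with a median of 1.51. CXCL8, the chemokine interleukin 8, rose by 4.31 to 6.32 on the log2 scale, RELB by 2.55 to 2.65, the inhibitor NFKBIA by 1.76 to 2.00, NFKB2 by 1.35 to 2.38 and TNIP1 by 1.17 to 2.18. With single silencing against siCTRL#1 the same list had at most 1 gene called in either direction per duplex. Against NT siVPS4B#1 called 2 up and 1 down (22.3% of all genes in either direction) and siVPS4B#2 1 up and 1 down (15.5%). In the same comparison siVPS4A#1 called 0 up and 3 down (25.0%) and siVPS4A#2 1 up and 1 down (8.15%).

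The p53 target list had 3 of 10 genes called up in all 4 comparisons (3.96% of all genes) and 0 down (4.16%), with a median of 0.54. The pairs differed here. The list median was 0.26 and 0.04 in siVPS4A+B#1 cells and 1.07 and 0.79 in siVPS4A+B#2 cells (NT, then siCTRL#1). CDKN1A, the cell cycle inhibitor p21, rose by 1.39 to 2.29 in the pairs and by 1.95 in siVPS4A#1 cells against siCTRL#1. GDF15 rose by 0.68 to 1.19 and SESN2 by 0.74 to 1.01 in the pairs. GDF15 was 0.52 for the first pair against siCTRL#1 without replicate 2 and 0.50 without TMM factors, and SESN2 was 0.41, 0.55 and 0.54 in 3 of its 4 comparisons without replicate 3 (limma adjusted p = 0.28, 0.13 and 0.13), and 0.48 for the first pair against NT without replicate 4. Without the replicate block that last value was 0.74 (limma adjusted p = 0.064). In siVPS4A#1 cells, where FAS was highest, 7 of 10 p53 targets were called up against siCTRL#1 and 0 down, with a median of 1.21, where 9.57% of all genes were called up. With siVPS4A#2 none of the 10 was called, where 0.0871% of all genes were called in either direction. A link between the level of FAS and these genes was not tested.

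Cell type markers moved with combined silencing as well. CD68, counted among leukocyte markers and also a lysosomal protein of other cells, rose from 4.98 to 7.09 RPM in NT cells to 90.4 to 176 in the first pair and 40.5 to 95.3 in the second, with 19.7 to 25.3 in siVPS4B#1 cells (log2 fold change 2.65 to 4.22 in the pairs), with LYZ at 0 in all 4 libraries of siVPS4A+B#1. Of the 8 epithelial markers 1 was called up in all 4 comparisons (3.96% of all genes) and 0 down (4.16%), with a median of -0.07. This was CLDN4, an epithelial claudin, which rose by 1.18 to 1.38. Against NT each pair called 2 of the 8 up and 1 down, EPCAM in the first (-0.84) and CLDN3 in the second (-0.79). Against siCTRL#1 the pairs called 2 and 1 up and 0 down. Summed epithelial markers were at 7560 to 8963 RPM in siVPS4A+B#1 cells and 6078 to 6894 in siVPS4A+B#2 cells, against 4704 to 7329 in siCTRL#1 cells. Fibroblast and endothelial markers summed to 23.2 to 41.5 and 51.6 to 86.0 in the pairs and 16.4 to 32.4 in siCTRL#1 cells. The part of these markers in the values of the receptors was not tested.

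**Figure D4:**
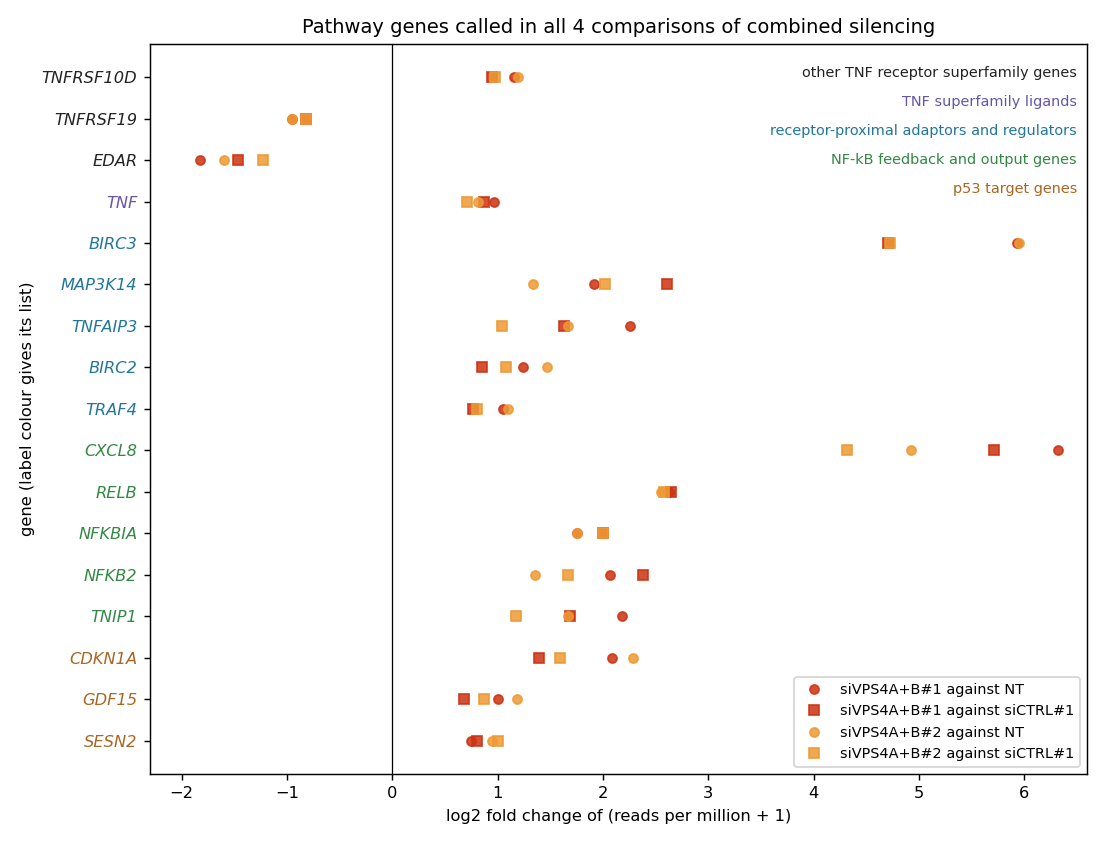
Log2 fold change of (RPM + 1) on the horizontal axis for the listed family and pathway genes called in all 4 comparisons of combined silencing, at most 5 per list and direction, with label colours by list. Red marks the first pair and orange the second, circles are against NT and squares against siCTRL#1. BIRC3 and CXCL8 lie between 4.31 and 6.32, and TNFRSF19 and EDAR lie below 0.

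Genes whose log2 values went closely with each member over the 37 libraries, after batch means were subtracted, are given as a description. The points share libraries and conditions, so r mostly follows the differences between conditions. For TNFRSF9 these were BIRC3 (r = 0.975), SQSTM1 (0.973) and KLF6 (0.969), and for TNFRSF10A ANKRD33B (0.955) and RELB (0.908). TNFRSF12A went with GADD45B (0.875), SEMA3B (0.861) and PFKP (0.853), TNFRSF1A with LGALS3 (0.843), MAGEA2 (0.814) and TBC1D19 (0.806), and TNFRSF21 with SERINC3 (0.819), TENT5A (0.709) and MLF2 (0.693). FAS went with SERPINB5 (0.806) and PRCC (0.806), LTBR with CASKIN1 (0.791), WDFY2 (0.757) and CARD19 (0.752), TNFRSF10B with KLF4 (0.781), AEN (0.762) and JARID2 (0.741), and TNFRSF11A with CEMIP (0.680), RUNX2 (0.662) and CYP2U1 (0.657). Among the members the closest pair was TNFRSF9 with TNFRSF10A (0.882), followed by TNFRSF10B with FAS (0.627).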

How the data were processed

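Total RNA of HCT116 cultures was read with the Ion AmpliSeq Transcriptome panel. The replicates are cultures of 1 line. The authors aligned reads to hg19 with TMAP and counted them with HTSeq 0.6.0. The submitters' processing notes also name DESeq2 1.18.1. The deposited signal is, per the values, the share of each library's reads, summing to 1 and given per RefSeq gene. Whole reads were recovered as multiples of the smallest step (within 0.15 reads, 100% of the values that could be placed in each library). RPM values (reads per 1000000) were scaled with TMM factors (0.881 to 1.10, edgeR 4.0.16) and log2(value + 1) was tested with limma 3.58.1 (R 4.3.3, trend) over all 12627 genes, 9 conditions and batch as a block, with Benjamini-Hochberg adjustment over all genes. The labels give replicate numbers 1 to 5 as batches a to e. Deviations from the condition means correlated by a mean of 0.16 within and -0.05 between batches. Since the deposited values were no counts, edgeR's quasi-likelihood test and DESeq2 1.42.0 on the recovered reads were alternatives. For siVPS4A+B#1 against siCTRL#1 edgeR called 3083 genes and limma 2793. Of all deposited values 49.3% could be placed.

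The members and gene lists were chosen with earlier results of these data known. The genes named are the 9 members, listed genes called in all 4 comparisons of combined silencing (at most 5 per list and direction), up to 3 genes most like each member (some are not reported here), and VPS4A and VPS4B. Alternatives were pseudocounts, filters, scalings, count models, thresholds, no block, the second control and each replicate left out. Leaving out NT replicate 1 was added after seeing the data. The fit was tested on simulated data.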

Additional observations from a re-analysis of the deposited data

Results flagged for a closer look

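In 4 of 81 groups of libraries (9 genes by 9 conditions) 1 library stood farther from the rest than Dixon's 95% limit allows, where chance gives about 1 in 20 groups. TNFRSF10B was at 796 RPM in NT replicate 1, against 275 to 297 in the other 3 NT libraries, and at 732 in siCTRL#2 replicate 1, against 416 to 446. TNFRSF12A was at 515 in NT replicate 1, against 196 to 248. LTBR was at 281 in siVPS4A#1 replicate 5, against 222 to 232.

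The effect of silencing 1 gene differed with the state of the other, by a test of the interaction. On the log2 scale these were TNFRSF9 (4.64 and 4.79 for the first and second pair), TNFRSF10A (0.96 and 0.90), TNFRSF10B (0.99, first pair), FAS (0.71, first pair), TNFRSF1A (0.71, second pair) and TNFRSF12A (1.08, second pair). The FAS value did not pass when replicate 1, 2, 3 or 4 was left out, nor under some other alternatives. That of TNFRSF10B did not pass without replicate 3 or without the replicate block.

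The library labelled siVPS4A#1 replicate 2, which is in no comparison, had 41 reads of TNFRSF9 among 669257, or 66.4 RPM, where the control libraries reached 2.15 and the other siVPS4A#1 libraries 0.994. It held 7 reads of VPS4A and 1 of VPS4B, where the mean level of the other siVPS4A#1 libraries would give 16.2 reads of VPS4B. TNFRSF21 was at 209 RPM, above the highest control library (196) and inside the other siVPS4A#1 libraries (122 to 278).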

How the results depend on the processing

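The 2 members called in all 4 comparisons of combined silencing remained TNFRSF9 and TNFRSF10A with edgeR and DESeq2. The count was 1 in a limma test against a fold of 1.5 and with a fold threshold of 2. Under every other alternative it was 2. With siCTRL#2 in place of siCTRL#1 the genes changed to TNFRSF9 and TNFRSF12A, since TNFRSF10A (0.57 and 0.52) fell under the fold threshold. Testing against a fold of 1.5 left 5 of the 30 calls in single comparisons, 2 of 8 interactions, 6 of 14 calls of a pair against its duplexes and 0 of 7 calls between duplexes. A fold threshold of 2 left 5, 6 and 0 of the calls in single comparisons, against duplexes and between duplexes. Without the replicate block the counts were 2, 29, 6, 15 and 7 (combined, single, interactions, against duplexes, between duplexes), and the interactions of TNFRSF10B (0.97) and FAS (0.72) and siVPS4A#2 against NT for TNFRSF12A (0.60) fell short. Without TMM factors the median log2 fold change of all genes moved to as far as -0.16 and the share of higher calls in siVPS4A+B#1 against siCTRL#1 from 48.0% to 26.6%. The 10 called member values that were then lost were TNFRSF1A (0.43) and TNFRSF12A (0.57) in siVPS4A+B#1 against siCTRL#1, TNFRSF12A in siVPS4A+B#2 against NT (0.54), TNFRSF10A in siVPS4A+B#2 against siVPS4A#1 (0.55), TNFRSF1A in siVPS4A+B#1 against siVPS4A#2 (0.58), TNFRSF10B (0.57 and 0.58) and FAS (0.49 and 0.51) in the first and second pair against their VPS4B duplex, and the FAS interaction of the first pair (0.60, adjusted p = 0.096).

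Of the 59 called values none changed sign, and 34 stayed past the thresholds under the other scalings, pseudocounts, filter and count models, without the block, with the left-out library kept and with each replicate left out. That count leaves aside the test against a fold of 1.5 and the fold threshold of 2. Small values that changed sign were, without TMM factors, the first-pair interactions of TNFRSF1A (-0.010) and TNFRSF21 (-0.062), the second-pair interaction of TNFRSF11A (-0.040) and FAS in siVPS4A+B#1 against siCTRL#1 (-0.020). TNFRSF21 in siVPS4A+B#1 against NT was 0.025 by DESeq2, 0.0028 by edgeR and 0.054 without NT replicate 1. The FAS interaction of the second pair was 0.10 with the left-out library kept. Leaving out each replicate in turn gave -0.065 to 0.064 for TNFRSF10B in siVPS4A+B#1 and -0.19 to 0.057 for TNFRSF12A in siVPS4A+B#2 against siCTRL#1. For TNFRSF21 in siVPS4A+B#1 it gave -0.21 to 0.12 against NT, -0.28 to 0.079 against siCTRL#1 and -0.033 to 0.14 for the interaction. It gave -0.012 to 0.30 for FAS in siVPS4A+B#1 against NT and -0.26 to 0.14 for the TNFRSF11A interaction of the second pair. The cause of these changes was not tested. Depth limits TNFRSF9 outside the pairs, TNFRSF11A, TNF and TNFRSF19, where libraries hold few reads.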
